A study of Homo sapiens with 18 samples.

Results

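The genes described here are 10 cyclins and cyclin-dependent kinases (CDKs) that carry cells through G1 and S phase: CCND1, CCND2, CCND3, CCNE1, CCNE2, CCNA2, CDK1, CDK2, CDK4 and CDK6. They were taken by gene symbol, and each has 1 of the 26485 gene rows in every count table. All 10 were among the 12215 genes with enough counts to be tested. Their RNA was followed in human embryonic stem cells (hESC) of the established line WIBR3 and in cerebral organoids grown from them.

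The study had 18 bulk libraries in 6 groups of 3. The groups were hESC with both copies of LIS1 intact (LIS1+/+), hESC with 1 altered copy (LIS1+/-), and organoids of each genotype at Day 5 and at Day 12. LIS1, with the gene symbol PAFAH1B1, regulates the microtubule motor dynein. No treatment other than the change of LIS1 separates the genotypes in the labels. Libraries were made by MARS-seq, which counts tags close to the 3' end of each RNA.

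Gene counts per library lay between 1425098 and 4501489, and between 13590 and 15281 genes had a count. Mean PAFAH1B1 was 56.2 CPM in LIS1+/- against 89.3 CPM in LIS1+/+ as hESC, 92.6 against 139 CPM at Day 5 and 98.1 against 168 CPM at Day 12 (CPM, counts scaled to the TMM-adjusted size of each library). The libraries of the genotypes did not overlap at any stage, and the difference passed the test used below at Day 12 (edgeR, adjusted p = 0.0372) but not in hESC (0.173) or at Day 5 (0.148). Summed stem cell markers (8 genes) were lower at each later stage, and at every stage they were lower in each LIS1+/- library than in any LIS1+/+ library. In hESC they lay between 3636 and 3860 CPM in LIS1+/- and between 4733 and 4989 CPM in LIS1+/+. The ranges were 508 to 653 against 931 to 1028 CPM at Day 5, and 121 to 174 against 201 to 251 CPM at Day 12. Taken singly, only TDGF1 and DNMT3B were lower without overlap in LIS1+/- hESC, and no single stem cell marker was at Day 12. At Day 5 all of them but NANOG and ZFP42 were. The part of the stem cell markers in the genotype comparisons was not tested. ZFP42, a stem cell marker, had no count in hESC. Summed neural progenitor markers stood at 1139 to 1425 CPM in hESC, 2410 to 3763 CPM at Day 5 and 1626 to 3285 CPM at Day 12. In hESC NES (528 to 808 CPM) and SOX2 (464 to 592 CPM) held most of this sum, while PAX6, SOX1 and HES5 lay between 0 and 3.79 CPM. By Day 12 median NES and SOX2 were below Day 5 in both genotypes. Median SOX1 instead rose from 7.44 to 33.6 CPM in LIS1+/+ and from 11.3 to 37.1 CPM in LIS1+/-. Reads that did not map uniquely made up 34.9 to 58.3% of all rows in the 6 hESC libraries and 26.5 to 33.7% in the 12 organoid libraries, and the part of this difference in the changes from hESC was not tested. The file names carry another pool number at each stage, so stage and pool cannot be told apart. The sources used here do not give the altered part of LIS1 or the number of LIS1+/- clones, and genotype and clone cannot be told apart. Earlier results of these data showed 3 libraries to stand apart from the others: replicate 3 of hESC LIS1+/+, replicate 2 of Day 5 LIS1+/- and replicate 2 of Day 12 LIS1+/+. Nothing in the labels says whether replicates were separate cultures, so p-values here reflect the spread of libraries, which may be technical.

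D-type cyclins are made in response to growth signals and activate CDK4 and CDK6, which phosphorylate the retinoblastoma protein and free E2F transcription factors. E-type cyclins with CDK2 then start DNA replication, cyclin A2 with CDK2 and later CDK1 carries S phase and entry into G2, and CDK1 drives mitosis. Pluripotent stem cells are known for a short G1 phase, which lengthens as they turn into neural progenitors, and CCND2 is known as a D cyclin of cortical progenitors. In bulk RNA, fewer cells in a phase or of a type and less RNA per cell cannot be told apart.

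Promoter sequence is shown for 3 genes, because CCNA2 and CDK1 deviated together within the groups and CCNE1 had the steepest fall over the stages. Each line holds the 80 bases just before a start annotated by RefSeq on GRCh38.p14, read 5' to 3' on the strand of the gene. Capitals mark matches on either strand to the letters of the cell cycle homology region (CHR, TTTGAA or CTTGAA) and of the CCAAT box (CCAAT, which reads ATTGG on the other strand).
CCNA2, chr4:121823884-121823963, minus strand: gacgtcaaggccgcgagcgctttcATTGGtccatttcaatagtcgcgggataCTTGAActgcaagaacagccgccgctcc
CDK1, chr10:60778398-60778477, plus strand: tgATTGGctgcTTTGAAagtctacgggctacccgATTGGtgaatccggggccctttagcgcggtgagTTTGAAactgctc
CCNE1, chr19:29811911-29811990, plus strand: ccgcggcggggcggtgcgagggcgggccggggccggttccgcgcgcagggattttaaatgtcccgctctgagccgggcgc
In CCNA2 the CHR letters began 28 bases and the CCAAT letters 56 bases before the start. At the CDK1 start shown, CHR letters began 69 and 13 bases before it and CCAAT letters 78 and 46 bases before it. Of 2 annotated CDK1 starts, this one was shown because its 80 bases held matches. The 80 bases before the other start (chr10:60778251-60778330) held none. The 250 bases before that other start held 1 CHR and 1 CCAAT match. Over 250 bases before each of 35116 annotated starts, CHR letters were present in 20.9% and CCAAT letters in 32% of the windows. E2F letters (TTTCCCGC, TTTCGCGC, TTTGCCGC or TTTGGCGC) were present in 2.79% of the windows, and among the members with a window only in that of the CDK1 start shown. The windows of CCNE1, CDK4 and CDK6 held none of these letters. CCND3 windows held CCAAT letters, in 1 case 64 bases before a start, but no CHR letters. The 250-base window of CCNA2 held 2 CHR matches, of which the nearer is in the stretch shown. Such matches are short strings and are not shown to be sites.

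Among the 10 genes, CCND2 had the largest change in each of the 2 steps between stages in LIS1+/+. From hESC to Day 5 in LIS1+/+, CCND2, CCNE1, CDK1 and CDK6 fell and no member rose (edgeR quasi-likelihood test, with Benjamini-Hochberg adjustment over all tested genes and a threshold of 0.05). Among all tested genes 21.7% fell and 22.9% rose in this step. From Day 5 to Day 12 in LIS1+/+, CCND2 rose while CCND3 and CCNE1 fell, against 12.7% of all tested genes that rose and 11.7% that fell. Over the whole span from hESC to Day 12 in LIS1+/+, 1 member rose (CCND2) and 2 fell (CCND3 and CCNE1), where 28.1% of all tested genes rose and 25% fell. These counts of calls are near or below the share of all genes that changed between stages, apart from the 4 that fell by Day 5. The median log2 change of the members was -0.44 in the first LIS1+/+ step and 0.00 in the next, beside 0.06 and 0.02 over all tested genes.

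In LIS1+/- the first step lowered CCND1, CCND2, CCND3 and CCNE1 and raised none of the 10, beside 21.4% of all tested genes that fell and 22.4% that rose. From Day 5 to Day 12 in LIS1+/- 1 member passed, CCND2, which rose, where 8.9% of all genes rose and 7.64% fell. From hESC to Day 12 in LIS1+/- CDK2 rose and CCND1, CCND3, CCNE1 and CDK4 fell, beside 26.7% and 25.4% of all tested genes. The medians of the 10 members were -0.48, 0.05 and -0.44 for these 3 comparisons, and those of all tested genes 0.06, -0.01 and 0.04. The libraries of the compared groups did not overlap for 4 to 6 members in each of the 6 stage comparisons, while 34.3% to 62.3% of all tested genes did not overlap.

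**Figure D1:**
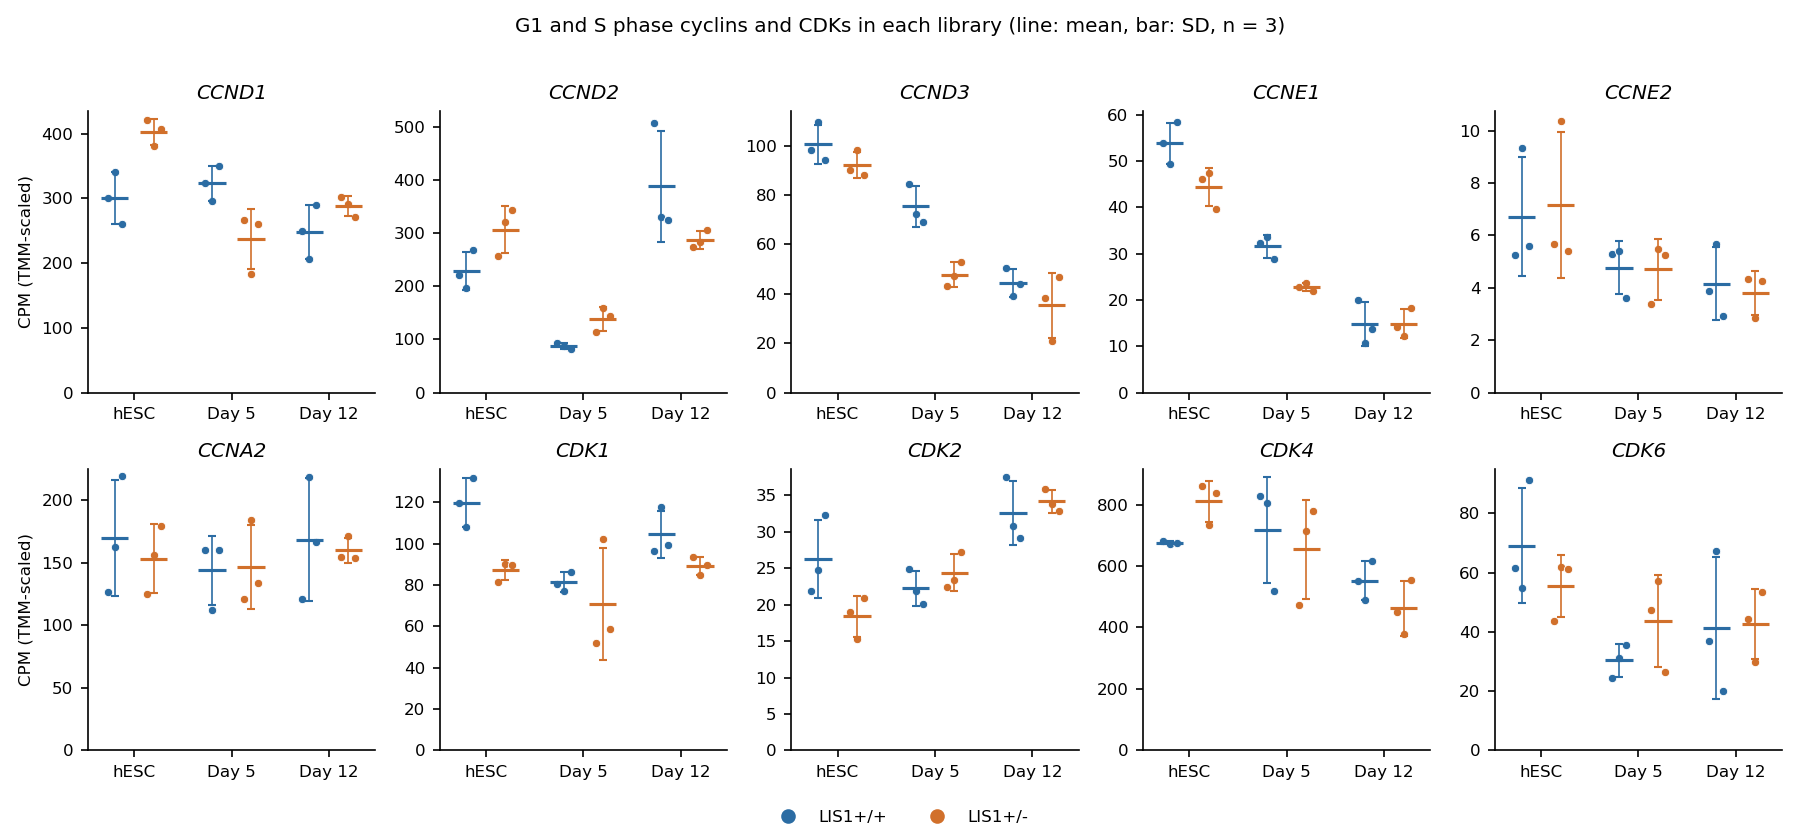
Level of each of the 10 genes in every library, in CPM on a linear axis that starts at 0 and differs between panels, by stage and genotype. Points are libraries, lines are group means and bars are SD (n = 3). CCND2 is lowest at Day 5 in both genotypes, CCND3 and CCNE1 step down over the stages, and CCNA2 overlaps in all groups.

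CCND2, a D cyclin that partners CDK4 and CDK6, lies on chromosome 12 (4273772 to 4305350, plus strand, GENCODE 29 on GRCh38). Its level in hESC LIS1+/+ was 222, 197 and 268 CPM, and it dropped to 92.6, 87.7 and 81.9 CPM at Day 5 before reaching 508, 331 and 324 CPM at Day 12. In LIS1+/- it was 256, 321 and 343 CPM as hESC, 114, 159 and 144 CPM at Day 5 and 273, 283 and 306 CPM at Day 12. Every Day 5 library was below every hESC and every Day 12 library, in either genotype. The fall to Day 5 was 2.62-fold in LIS1+/+ (log2 change -1.39 ± 0.18 SE, n = 3 against 3, adjusted p = 6.86e-07) and 2.21-fold in LIS1+/- (-1.14 ± 0.18, adjusted p = 9.75e-06). The rise to Day 12 was 4.43-fold in LIS1+/+ (2.15 ± 0.18, adjusted p = 5.21e-09) and 2.07-fold in LIS1+/- (1.05 ± 0.18, adjusted p = 0.000141). At Day 12 the LIS1+/+ level was 1.69-fold above hESC (0.76 ± 0.18, adjusted p = 0.000855), whereas in LIS1+/- the groups overlapped and the difference was -0.09 ± 0.18 (adjusted p = 0.674).

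Day 12 LIS1+/+ replicate 1, at 508 CPM, had the highest CCND2 of all 18 libraries. Without it the change from Day 5 in LIS1+/+ was 1.90, still past the threshold. Markers of other cell types varied within the Day 12 LIS1+/+ group. The 8 mesenchyme markers summed to 148, 399 and 967 CPM in order of size, against 89.6 to 122 CPM in Day 12 LIS1+/-. Neural crest markers (6 genes) lay between 35.9 and 288 CPM against 31.0 to 40.8 CPM. The 7 markers of choroid plexus, endoderm and yolk sac lay between 27.7 and 508 CPM against 23.0 to 35.2 CPM. Among these 7, CLIC6 went the other way, with 4.52 to 6.92 CPM in LIS1+/+ and 12.0 to 22.2 CPM in LIS1+/-. The highest of these 3 sums belong to replicate 1, the library with the highest CCND2, and the lowest to replicate 2. FOXD3, FOXA2 and SOX17 had no count in Day 12 LIS1+/-, and each also had 0 CPM in its lowest Day 12 LIS1+/+ library. FOXA2 and SOX17 summed to only 11 and 13 counts in Day 12 LIS1+/+. Of the other neural crest markers, SOX10, TFAP2A and ETS1 were lower in Day 12 LIS1+/- without overlap, while TFAP2B and PAX3 overlapped. The part of all these markers in the Day 12 results was not tested.

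CCND1, the D cyclin on chromosome 11 (69641087 to 69654474, plus strand), followed another course. In LIS1+/+ it stood at 301, 341 and 261 CPM in hESC, 323, 296 and 350 CPM at Day 5 and 249, 206 and 289 CPM at Day 12. The LIS1+/- libraries began higher, at 420, 381 and 407 CPM, and went to 267, 183 and 260 CPM at Day 5 and 302, 291 and 271 CPM at Day 12. Only the LIS1+/- group showed a change that passed from hESC to Day 5, a 1.70-fold fall (-0.77 ± 0.16, adjusted p = 0.000355), while the LIS1+/+ libraries of both stages overlapped (0.10 ± 0.16, adjusted p = 0.627). The difference between these changes was -0.87 ± 0.23 and missed the threshold (adjusted p = 0.0825), but it passed with no filter on low counts (adjusted p = 0.03) and with DESeq2 (adjusted p = 0.0274). Without Day 12 LIS1+/+ replicate 3 the LIS1+/+ step from Day 5 to Day 12, -0.38 ± 0.16 (adjusted p = 0.0852), was -0.51 and passed (adjusted p = 0.038). By Day 12 LIS1+/- remained below its stem cells (-0.48 ± 0.16, adjusted p = 0.0129), a call lost without Day 12 LIS1+/- replicate 3 (adjusted p = 0.0518).

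CCND3, on chromosome 6 (41934933 to 42050357, minus strand), fell over the stages in both genotypes. The LIS1+/+ libraries read 98.1, 110 and 94.3 CPM in hESC, 84.7, 72.3 and 69.2 CPM at Day 5 and 50.4, 39.0 and 43.8 CPM at Day 12. In LIS1+/- the values were 90.3, 98.3 and 88.0 CPM, then 43.0, 47.2 and 53.0 CPM, then 38.3, 21.1 and 46.7 CPM. Most of the LIS1+/- fall came by Day 5 (-0.95 ± 0.21, adjusted p = 0.000626), and the step to Day 12 did not pass (-0.44 ± 0.22, adjusted p = 0.169), though without Day 12 LIS1+/- replicate 3 it was -0.74 and did (adjusted p = 0.0395). In LIS1+/+ the first step did not pass (-0.42 ± 0.20, adjusted p = 0.1, or 0.0381 with only these groups in the fit) and the next did (-0.76 ± 0.21, adjusted p = 0.0101). The difference between genotypes in the first step was -0.53 ± 0.29 (adjusted p = 0.478), so a different timing was not shown. Over the span CCND3 fell 2.27-fold in LIS1+/+ (-1.18 ± 0.22, adjusted p = 6.2e-05) and 2.62-fold in LIS1+/- (-1.39 ± 0.22, adjusted p = 5.86e-06).

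The balance between CCND2 and CCND1 was read within each library, as log2 of the ratio of their counts after adding 0.5 to each, which does not depend on the scaling of libraries. CCND2 made up 42.5, 36.6 and 50.7% of the summed CCND1 and CCND2 counts in hESC LIS1+/+, 22.3, 22.9 and 18.9% at Day 5 and 67.1, 61.7 and 52.9% at Day 12. In LIS1+/- the shares were 37.9, 45.7 and 45.7% in hESC, 30.0, 46.4 and 35.7% at Day 5 and 47.5, 49.3 and 53.0% at Day 12. LIS1+/+ libraries ran from 18.9 to 67.1% with no overlap between stages, and LIS1+/- libraries from 30.0 to 53.0%, with overlap between hESC and Day 5 only. The mean log2 ratio in LIS1+/+ was -0.40 ± 0.42 (SD, n = 3) in hESC, -1.88 ± 0.19 at Day 5 and 0.62 ± 0.43 at Day 12. In LIS1+/- the means were -0.40 ± 0.27, -0.76 ± 0.51 and -0.00 ± 0.16.

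At Day 5 every LIS1+/- library had a higher ratio than every LIS1+/+ library, with a difference of 1.12 between the means. The exact two-sided permutation p was 0.1, the smallest that 3 libraries against 3 allow, and 0.175 after adjustment over 7 comparisons. The same exact p values held for both LIS1+/+ steps and for the LIS1+/- step from Day 5 to Day 12. In hESC the genotypes overlapped (exact permutation p = 1). At Day 12 the difference was -0.63 (exact permutation p = 0.2, adjusted 0.28), and from hESC to Day 5 in LIS1+/- -0.36 (exact permutation p = 0.4, adjusted 0.467). The latter was -0.12 without Day 5 LIS1+/- replicate 1 and -0.63 without replicate 2. This exact test cannot go below 0.1 with 3 libraries against 3, and no other test of the ratio was run.

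**Figure D2:**
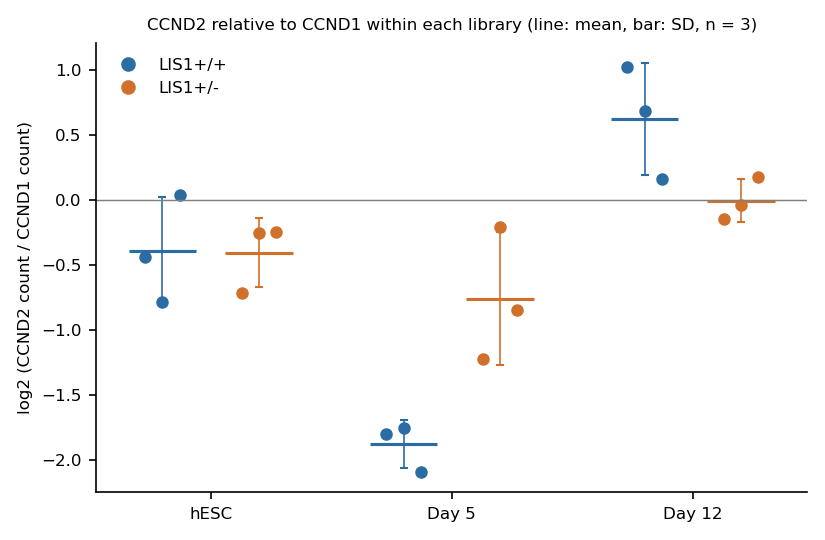
CCND2 relative to CCND1 in each library as the log2 ratio of their counts, by stage and genotype. Points are libraries, lines are means and bars are SD (n = 3), and 0 marks equal counts. The Day 5 LIS1+/+ libraries lie between -2.10 and -1.75, below every other library.

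CCNE1, a cyclin that activates CDK2 at the start of S phase, lies on chromosome 19 (29811898 to 29824308, plus strand). In LIS1+/+ it stood at 53.8, 49.4 and 58.3 CPM in hESC, at 32.3, 33.6 and 28.9 CPM at Day 5 and at 20.0, 10.7 and 13.6 CPM at Day 12. The LIS1+/- libraries read 46.1, 47.3 and 39.7 CPM, then 22.8, 23.8 and 21.9 CPM, then 14.2, 12.2 and 18.2 CPM. Stages did not overlap within a genotype, and the Day 12 genotypes did. CCNE1 was 3.65-fold lower at Day 12 than in hESC in LIS1+/+ (-1.87 ± 0.24, adjusted p = 4.55e-07) and 2.95-fold lower in LIS1+/- (-1.56 ± 0.23, adjusted p = 3.12e-06). Both LIS1+/+ steps passed (-0.77 ± 0.21, adjusted p = 0.00466, and -1.10 ± 0.24, adjusted p = 0.00144). In LIS1+/- the first step passed (-0.95 ± 0.22, adjusted p = 0.00102) and the next did not (-0.61 ± 0.23, adjusted p = 0.0766).

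CCNE2, the other E cyclin, on chromosome 8, had only 6 to 24 counts in a library. Its group means ran from 7.15 ± 2.79 CPM (SD, n = 3) in hESC LIS1+/- to 3.82 ± 0.84 CPM in Day 12 LIS1+/-. No comparison of CCNE2 passed, and each group overlapped with the next lower in level. The 95% interval of its change from hESC to Day 12 in LIS1+/+, -1.70 to 0.31, holds both no change and a fall as deep as that of CCND3. The same change in LIS1+/- was -0.93 (95% interval -1.85 to -0.0012, adjusted p = 0.0867), with no overlap between the libraries. INTS8 and NDUFAF6 overlap CCNE2 on the opposite strand, and the sources used here do not say whether strand was used in counting.

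CCNA2, the cyclin of S phase and G2, on chromosome 4 (121816444 to 121823933, minus strand), did not pass in any of the 12 comparisons. Its group means lay between 144 and 170 CPM, and each group overlapped with the next in order of level. The LIS1+/+ values were 127, 163 and 220 CPM in hESC, 160, 112 and 160 CPM at Day 5 and 121, 219 and 166 CPM at Day 12. In LIS1+/- they were 125, 156 and 180 CPM, then 121, 185 and 134 CPM, then 155, 172 and 154 CPM. The SD was 17.8 to 29.1% of the mean in 5 of the 6 groups and 6.26% in Day 12 LIS1+/-, and the 3 libraries that stand apart held the highest CCNA2 of their groups. EXOSC9 overlaps CCNA2 on the opposite strand. From hESC to Day 12 the 95% interval of the log2 change was -0.46 to 0.45 in LIS1+/+ and -0.39 to 0.50 in LIS1+/-.

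CDK1, the mitotic kinase, on chromosome 10 (60778331 to 60794852, plus strand), had a shallow dip at Day 5. In LIS1+/+ it went from 119, 108 and 132 CPM in hESC to 80.6, 77.3 and 86.4 CPM at Day 5 and 96.3, 118 and 99.3 CPM at Day 12. In LIS1+/- it was at 81.4, 90.2 and 89.4 CPM, then 52.0, 102 and 58.5 CPM, then 93.4, 84.8 and 89.8 CPM. The 1 high value at Day 5, 102 CPM, belongs to LIS1+/- replicate 2. In LIS1+/+ the fall to Day 5 passed (-0.56 ± 0.19, adjusted p = 0.0199) but was lost without hESC LIS1+/+ replicate 3 (-0.48) and without Day 5 LIS1+/+ replicate 1 or 2. In LIS1+/- the fall of -0.30 ± 0.20 did not pass (adjusted p = 0.218), and without Day 5 LIS1+/- replicate 2 it was -0.65 (adjusted p = 0.0041), followed by a rise of 0.68 to Day 12 (adjusted p = 0.00822).

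CDK2, the partner of cyclins E and A, on chromosome 12 (55966769 to 55972784, plus strand), passed in 1 comparison. It read 18.9, 15.3 and 20.9 CPM in hESC LIS1+/-, 22.4, 23.4 and 27.2 CPM at Day 5 and 35.9, 33.9 and 32.8 CPM at Day 12, with no overlap between stages. In LIS1+/+ it read 21.9, 24.7 and 32.3 CPM, then 24.8, 21.9 and 20.1 CPM, then 37.5, 30.8 and 29.2 CPM, and hESC overlapped with both later stages. The LIS1+/- rise from hESC to Day 12 was 1.85-fold (0.88 ± 0.23, adjusted p = 0.00205), against 0.31 ± 0.23 in LIS1+/+ (adjusted p = 0.275), and the difference of 0.58 ± 0.33 did not pass (adjusted p = 0.696). The LIS1+/+ step from Day 5 to Day 12 was 0.54 ± 0.22 (edgeR, adjusted p = 0.0753) and passed with DESeq2 (0.58, adjusted p = 0.0418). PMEL overlaps CDK2 on the opposite strand. Its mean went from 159 to 361 to 51.8 CPM over the LIS1+/- stages, a course unlike that of CDK2.

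CDK4, the main kinase partner of the D cyclins in many cells, on chromosome 12 (57747727 to 57756013, minus strand), was lower late in LIS1+/-. Its LIS1+/- levels were 860, 733 and 837 CPM in hESC, 473, 714 and 778 CPM at Day 5 and 452, 379 and 555 CPM at Day 12. In LIS1+/+ they were 682, 671 and 675 CPM, then 827, 806 and 519 CPM, then 551, 489 and 617 CPM. The Day 5 values were spread widely in both genotypes, and no step to or from Day 5 passed with all libraries and the filter on low counts. From Day 5 to Day 12 the LIS1+/- change of -0.50 ± 0.18 (adjusted p = 0.0615) passed with no filter on low counts (adjusted p = 0.0291), without Day 5 LIS1+/- replicate 1 (-0.69, adjusted p = 0.0133) and without Day 12 LIS1+/- replicate 3 (-0.66, adjusted p = 0.0345). The LIS1+/+ change of -0.38 ± 0.18 (adjusted p = 0.137) passed without Day 5 LIS1+/+ replicate 3 (-0.57, adjusted p = 0.0315). From hESC to Day 12 CDK4 fell 1.75-fold in LIS1+/- (-0.81 ± 0.19, adjusted p = 0.000657) and differed by -0.29 ± 0.19 in LIS1+/+ (adjusted p = 0.19). The difference between the genotypes in this change was -0.52 ± 0.26 (adjusted p = 0.635). TSPAN31 and MARCH9 overlap CDK4 on the opposite strand, and TSPAN31 had a mean of 16.8 to 48.0 CPM per group.

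CDK6, the other kinase of the D cyclins, on chromosome 7 (92604921 to 92836594, minus strand), fell 2.27-fold from hESC to Day 5 in LIS1+/+ (-1.18 ± 0.34, adjusted p = 0.0069). The values were 61.4, 54.8 and 91.2 CPM in hESC LIS1+/+, 24.6, 31.1 and 35.6 CPM at Day 5 and 36.8, 67.3 and 20.0 CPM at Day 12. The highest value of hESC and that of Day 12 belong to libraries that stand apart. Without hESC LIS1+/+ replicate 3 the fall was -0.93 and lost its call, and without Day 12 LIS1+/+ replicate 2 the change from hESC to Day 12 went from -0.76 ± 0.35 (adjusted p = 0.0721) to -1.31 (adjusted p = 0.00236). In LIS1+/- CDK6 read 43.6, 61.8 and 61.3 CPM, then 47.5, 57.0 and 26.6 CPM, then 44.5, 29.9 and 53.6 CPM, the stages overlapped and no change passed.

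**Figure D3:**
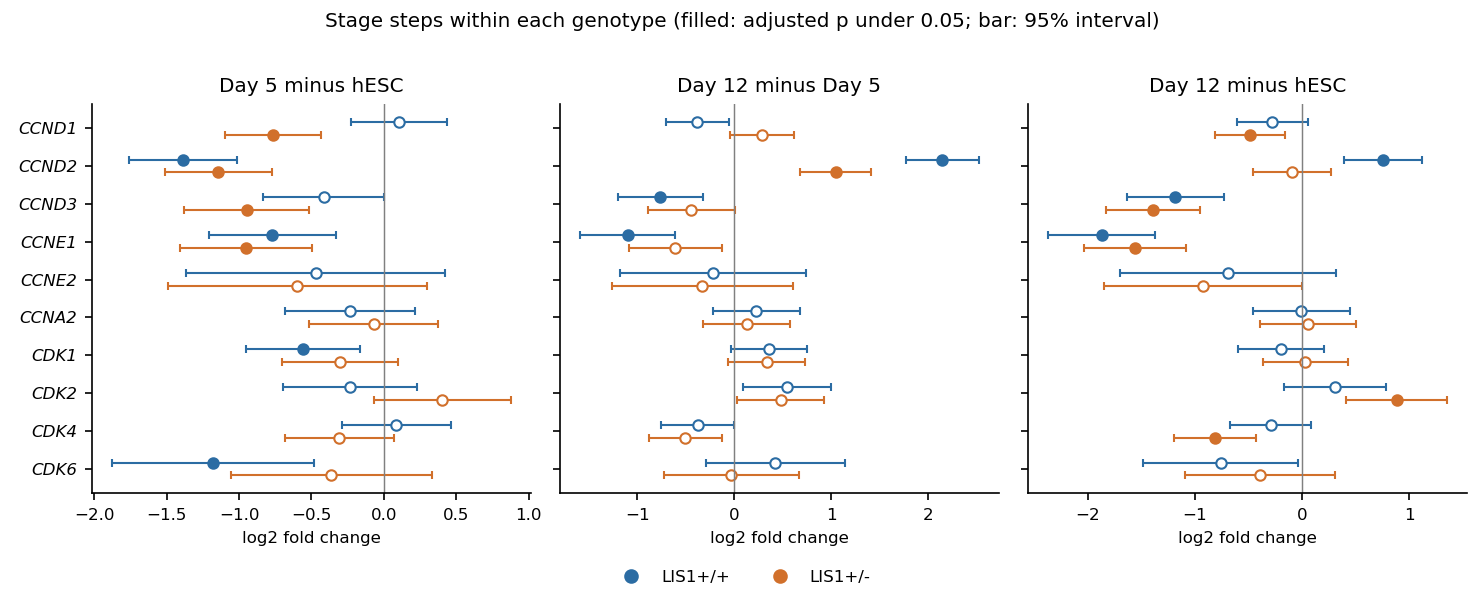
Fitted log2 fold change of each gene between stages, in 3 panels with different axis ranges, for LIS1+/+ and LIS1+/-. Points are estimates, bars are 95% intervals, and filled points have an adjusted p under 0.05. CCND2 changes sign between the first and the next step in both genotypes, and CCNE1 is below 0 throughout.

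The genotype comparisons asked whether loss of 1 LIS1 copy went with other levels of these genes. As hESC, none of the 10 genes passed between LIS1+/- and LIS1+/+, where 0.491% of all tested genes did, and 4 members had an unadjusted p under 0.05 in edgeR (CCND1, CCND2, CDK1 and CDK2), as did 1367 of the 12215 tested genes. DESeq2 also called none of them. In hESC 5 members had libraries that did not overlap, against 18.3% of all tested genes: CCND1 and CDK4 were higher and CCNE1, CDK1 and CDK2 lower in LIS1+/-. CCND1 had a mean of 403 ± 19.8 CPM (SD, n = 3) in LIS1+/- and 301 ± 40.0 CPM in LIS1+/+, a log2 difference of 0.42 ± 0.16 (adjusted p = 0.297).

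At Day 5 CCND2 alone passed, 1.59-fold higher in LIS1+/- (0.67 ± 0.18, adjusted p = 0.048), where 1.95% of all tested genes passed in either direction. This call lay close to the threshold and was lost in 8 of 12 alternatives, among them the replicate block, a fit to Day 5 only, the fit without the 3 libraries that stand apart, and the fits without Day 5 LIS1+/+ replicate 1, 2 or 3 or Day 5 LIS1+/- replicate 2 or 3. The estimate stayed between 0.57 and 0.79. Beside it, the summed mesenchyme markers at Day 5 were 23.4 to 29.8 CPM in LIS1+/- and 52.6 to 66.5 CPM in LIS1+/+. Among these markers only COL1A2 did not overlap, at 14.6 to 20.1 CPM in LIS1+/- against 46.1 to 54.3 CPM in LIS1+/+. The summed stem cell markers did not overlap either. Summed non-neural epithelium markers were lower too, at 220 to 319 against 440 to 527 CPM, as were summed neural crest markers. Of the neural progenitor markers, LHX2 was higher in LIS1+/-, at 212 to 276 against 90.4 to 107 CPM. SIX3 was higher at 270 to 346 against 126 to 141 CPM, and PAX6 was also higher without overlap. The other neural progenitor markers and their sum overlapped. Summed neuron markers were higher by a narrow margin. The part of these marker differences in the CCND2 difference was not tested. The other D cyclins had lower values in LIS1+/- with no overlap and did not pass: CCND1 by -0.45 ± 0.16 (adjusted p = 0.206) and CCND3 by -0.66 ± 0.21 (adjusted p = 0.119). CCNE1 did not overlap either (-0.47 ± 0.22, adjusted p = 0.4). These 4 members without overlap compare with 17.5% of all tested genes. The same 4 had an unadjusted p under 0.05, as did 1404 of the 12215 tested genes.

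At Day 12 no member passed, by edgeR or by DESeq2, where 1.4% of all tested genes did in edgeR, and 1 member, CCND2, had an unadjusted p under 0.05, as did 1548 of the 12215 tested genes. CCND2 and CDK1 did not overlap between the genotypes, against 16.9% of all tested genes. Here CCND2 was the lower in LIS1+/-, by -0.43 ± 0.18 (adjusted p = 0.289). The median genotype difference of the 10 members was -0.13 in hESC, -0.07 at Day 5 and -0.10 at Day 12, beside 0.03, 0.01 and -0.01 over all tested genes.

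The genotype difference of CCND2 changed between Day 5 and Day 12 by -1.10 ± 0.25 on the log2 scale (adjusted p = 0.0257), the only member that passed in this test, which 1.06% of all tested genes passed. It lost its call in 9 of 18 alternatives, each of which left out 1 library of Day 5 or Day 12, with estimates from -1.22 to -0.86. No member passed for Day 5 minus hESC, where 0.573% of all tested genes did, or for Day 12 minus hESC, where 0.377% did. The CCND2 value for Day 12 minus hESC was -0.85 ± 0.25 (adjusted p = 0.179), and -1.08 without the 3 libraries that stand apart (adjusted p = 0.0144). These comparisons share groups with the stage comparisons above, so their values are not independent of them.

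**Figure D4:**
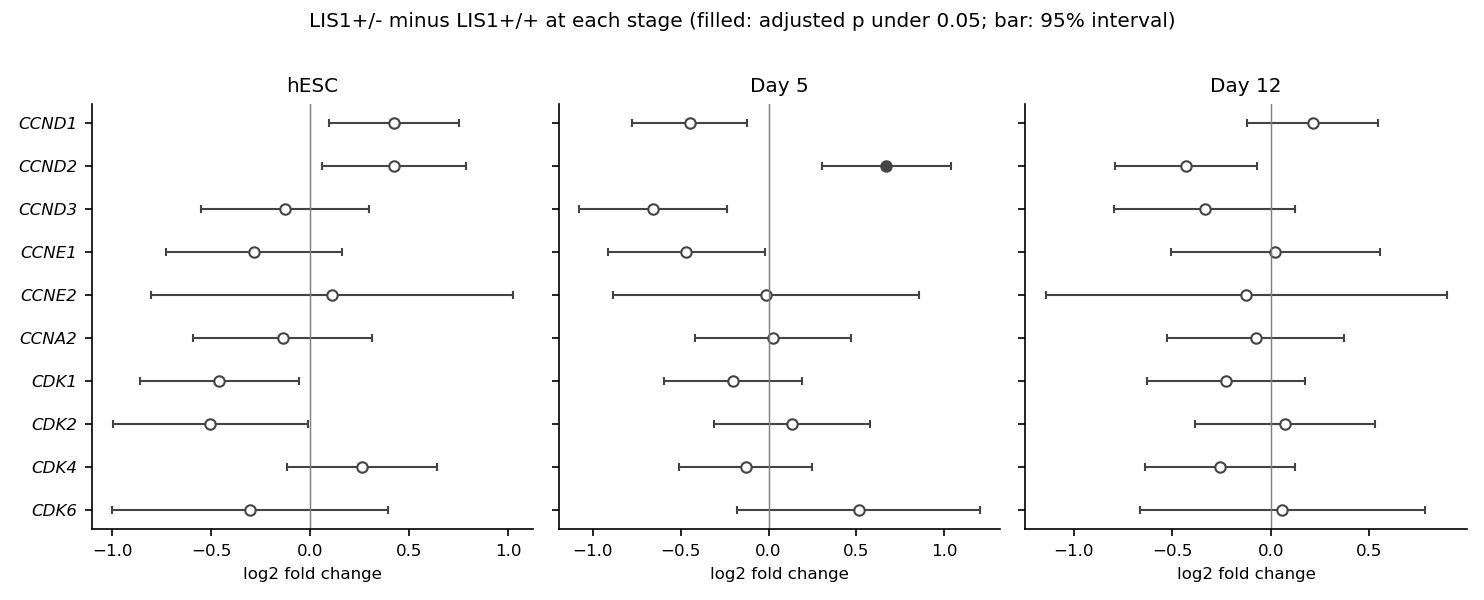
Fitted log2 fold change of LIS1+/- against LIS1+/+ for each gene at the 3 stages, with 95% intervals. The filled point has an adjusted p under 0.05. CCND2 is at 0.67 at Day 5 and at -0.43 at Day 12, and most other intervals include 0.

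Other cell cycle genes were grouped into 7 lists by function. Of 7 tested inhibitors of CDKs, 4 rose and 1 fell from hESC to Day 5 in LIS1+/+, and 3 rose and 1 fell from Day 5 to Day 12. In LIS1+/- 3 rose and 1 fell in the first step, and 2 rose and 1 fell in the next. Over the span from hESC to Day 12, 5 rose and 1 fell in each genotype. Of all tested genes in LIS1+/+ 22.9% rose and 21.7% fell in the first step, and 12.7% and 11.7% in the next. Over the span these LIS1+/+ shares were 28.1% and 25%. In LIS1+/- the shares were 22.4% and 21.4%, then 8.9% and 7.64%, and 26.7% and 25.4% over the span. In LIS1+/+ CDKN1C, which encodes the inhibitor p57, had a mean of 36.0 CPM in hESC, 148 CPM at Day 5 (2.05 ± 0.22, adjusted p = 2.02e-08) and 380 CPM at Day 12 (1.36 ± 0.19, adjusted p = 1.33e-05). CDKN2D, an inhibitor of CDK4 and CDK6, rose in the later step from 13.9 to 59.2 CPM (2.09 ± 0.22, adjusted p = 2.29e-07). CDKN1B, which encodes p27, rose by Day 5 from 27.2 to 50.5 CPM (0.89 ± 0.22, adjusted p = 0.0017).

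CDKN2A, which encodes p16 and p14ARF, was the inhibitor that fell, from 74.0 to 6.23 to 1.01 CPM in LIS1+/+. It was also the only one of these genes higher in LIS1+/- at all 3 stages: 237 against 74.0 CPM in hESC (1.68 ± 0.23, adjusted p = 0.000579), 36.2 against 6.23 CPM at Day 5 (2.53 ± 0.28, adjusted p = 2.15e-06) and 16.5 against 1.01 CPM at Day 12 (4.06 ± 0.50, adjusted p = 4.14e-05). Tags at the 3' end cannot separate its products. In Day 12 LIS1+/+ libraries 3 counts were worth 1.46 to 1.94 CPM, above the CDKN2A mean of 1.01 CPM. The size of its Day 12 genotype difference therefore rests on few counts. CDKN1C differed in its genotype effect, by -1.38 ± 0.30 for Day 5 minus hESC (adjusted p = 0.0247) and by -1.31 ± 0.29 for Day 12 minus hESC (adjusted p = 0.0406).

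Of 19 genes of origin licensing and S phase entry, 11 fell and none rose from Day 5 to Day 12 in LIS1+/+, and 7 fell and none rose in LIS1+/-. By Day 5, 5 had fallen and 3 had risen in LIS1+/+, and 3 had fallen and 5 had risen in LIS1+/-. Of all tested genes 11.7% in LIS1+/+ and 7.64% in LIS1+/- fell from Day 5 to Day 12. By Day 5, 21.7% had fallen and 22.9% had risen in LIS1+/+, and 21.4% and 22.4% in LIS1+/-. The 11 include the 6 MCM genes of the replicative helicase, among them MCM5, with means of 623, 483 and 186 CPM over the stages (-1.38 ± 0.18 in the later step, adjusted p = 3.57e-06). CDC6, which loads the helicase, fell in both steps, from 122 to 57.6 to 23.3 CPM. TYMS, the thymidylate synthase, rose by Day 5 from 186 to 364 CPM (0.97 ± 0.14, adjusted p = 3.98e-06). The median of the 19 in LIS1+/+ was -0.25 and then -0.60, beside 0.06 and 0.02 over all genes.

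Regulators of CDK activity and cyclin turnover (14 tested) had 4 lower and 1 higher by Day 5 in LIS1+/+, and 5 lower afterwards. Of all tested genes 21.7% were lower and 22.9% higher by Day 5, and 11.7% were lower afterwards. CDC25A, a phosphatase that activates CDK2, fell from 113 to 76.1 to 39.4 CPM, and SKP2, which marks p27 for breakdown, from 99.5 to 61.5 to 44.3 CPM. CDK7, the CDK-activating kinase, fell by Day 5 from 40.8 to 13.0 CPM (-1.65 ± 0.30, adjusted p = 6.03e-05).

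In LIS1+/+ the G2 and M phase genes (13 tested) were mixed, with 3 higher and 2 lower by Day 5 and 4 lower from Day 5 to Day 12. MKI67, the proliferation marker, rose from 20.9 to 68.6 CPM by Day 5 (1.73 ± 0.25, adjusted p = 3.26e-06), as did TOP2A from 19.2 to 53.5 CPM and CENPF from 131 to 288 CPM, while BUB1 fell from 79.6 to 36.7 CPM. Of 13 RB and E2F genes 4 rose and 1 fell by Day 5 in LIS1+/+, then 3 rose and 1 fell. Beside both lists, 22.9% of all tested genes rose and 21.7% fell by Day 5, then 12.7% rose and 11.7% fell. E2F2 rose from 16.1 to 47.9 CPM (1.55 ± 0.25, adjusted p = 1.77e-05), and RBL2, a pocket protein, rose later from 16.4 to 39.6 CPM (1.26 ± 0.32, adjusted p = 0.00525). By Day 5 in LIS1+/-, 4 G2 and M genes rose and 2 fell, and 5 RB and E2F genes rose and none fell. Afterwards 1 G2 and M gene fell and no RB and E2F gene passed. Of all tested genes in LIS1+/- 22.4% rose and 21.4% fell by Day 5, then 8.9% rose and 7.64% fell.

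Of the 4 MYC family genes 1 rose and 2 fell by Day 5 in LIS1+/+, and 2 fell afterwards. MYC, a driver of cell growth, fell from 113 to 17.2 to 9.61 CPM (-2.71 ± 0.24, adjusted p = 1.19e-09 in the first step). MYCN was lower in LIS1+/- at Day 12, 109 against 185 CPM (-0.76 ± 0.16, adjusted p = 0.0124), and its genotype effect changed from Day 5 to Day 12 by -1.12 ± 0.23 (adjusted p = 0.0117). Of 20 other tested cyclins and CDKs, 6 rose and 2 fell by Day 5 in LIS1+/+ and 4 rose and none fell afterwards. Beside this list and the MYC family, 22.9% of all tested genes rose and 21.7% fell by Day 5. Afterwards 12.7% rose and 11.7% fell. CCNA1, the cyclin A best known from the germ line, went from 2.64 to 0.386 to 16.8 CPM in LIS1+/+. The Day 5 mean of CCNA1 is below the 0.676 to 0.724 CPM that 3 counts were worth in those libraries. Apart from CDKN2A and MYCN, no gene of the 7 lists passed in a genotype comparison at 1 stage. Of all tested genes 0.491% passed in hESC, 1.95% at Day 5 and 1.4% at Day 12.

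**Figure D5:**
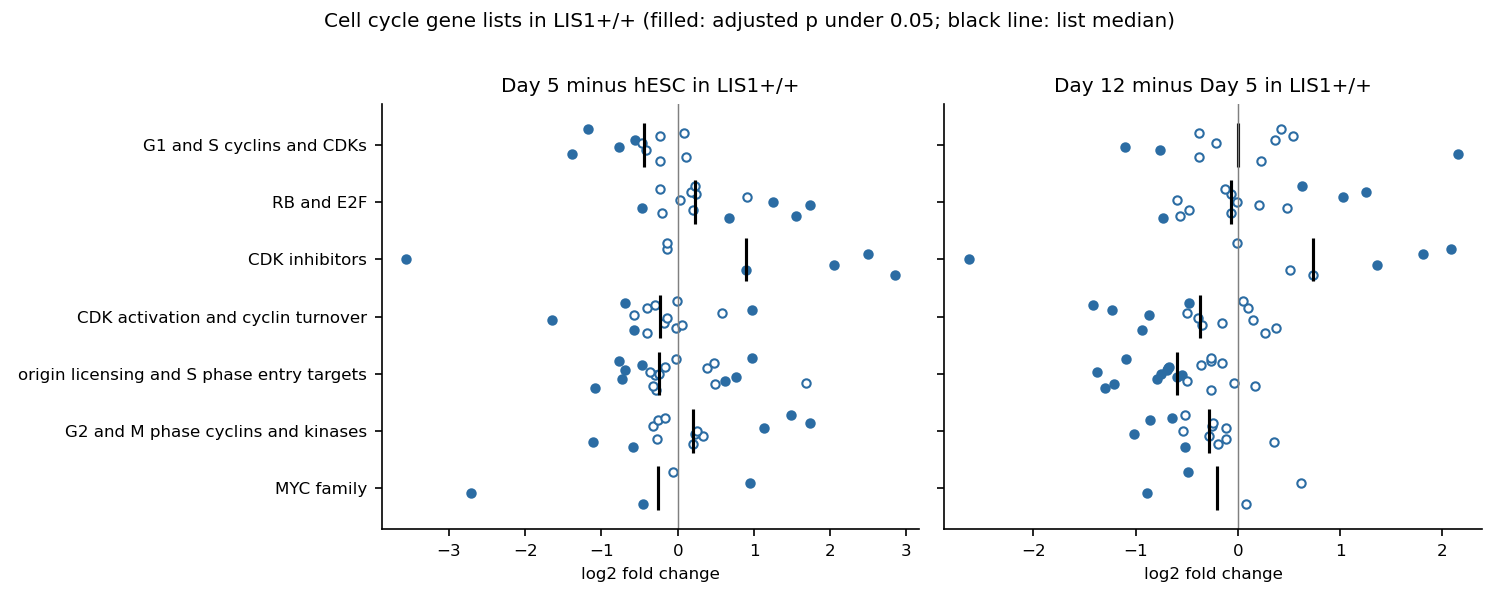
Fitted log2 fold change of every tested gene of the 10 members and of 6 of the 7 other lists in the 2 LIS1+/+ steps. Points are genes, filled at an adjusted p under 0.05, and black lines are list medians. In the later step 11 of 19 licensing and S phase genes are filled, and those 11 lie below 0, where 11.7% of all tested genes fell.

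Among the members, CCND3 and CCNE1 had the most alike levels over the 18 libraries (Pearson r = 0.927 on log2 CPM, as a description), and they still deviated together from the group means (r = 0.609). The highest positive correlation of deviations was that of CCNA2 and CDK1, at 0.641, with r = 0.585 over the libraries. Larger in size and negative were those of CCND1 with CDK1 (-0.782) and with CDK6 (-0.717). All pairs share the same libraries and their depth, and CCNA2 was high in the 3 libraries that stand apart. CCND1 and CCND2 had r = -0.02 over the libraries and -0.46 for the deviations.

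Of 8692 other genes with a mean of at least 10 CPM, those whose log2 CPM over the 18 libraries was most like that of CCND2 were SPARC (r = 0.907), KIF13A (0.906) and VIM (0.904). SPARC, a secreted matrix protein, averaged 80.6 CPM in hESC LIS1+/+, 22.8 CPM at Day 5 and 177 CPM at Day 12, and VIM, the intermediate filament vimentin, 4956, 2475 and 5750 CPM. Nearest to CCNE1 were IMP3 (0.982), FKBP1A (0.971) and TEAD4 (0.97), and TEAD4, a transcription factor of the Hippo pathway, went from 278 to 70.5 to 30.6 CPM in LIS1+/+. Nearest to CCND3 were STK35 (0.954), SLC38A5 (0.947) and APOE (0.942), and nearest to CCND1 CNOT3 (0.919), DHCR7 (0.904) and FLNA (0.884). For CCNE2, CCNA2, CDK1, CDK2, CDK4 and CDK6 the closest genes reached 0.834, 0.81, 0.896, 0.881, 0.826 and 0.877. These are the highest of 8692 values each, over points that share stage, library and depth.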

How the data were processed

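MARS-seq libraries of total RNA were analysed in 18 samples, grouped by the stage and genotype in the labels. The authors deposited raw counts per gene symbol, 1 table per library. Per the submitters' processing notes, cutadapt, STAR and DESeq2 were used, and GRCh37 and hg38 are both named. The sources used here do not say whether molecular identifiers or strand were used. The 5 closing rows that name no gene were left out of library sizes and tests, and the largest, reads that did not map uniquely, made up 34.9 to 58.3% of all rows in hESC and 26.5 to 33.7% in organoids.

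Genes were filtered with filterByExpr, scaled by TMM and tested in edgeR 4.0.16 (R 4.3.3; robust quasi-likelihood F-test, two-sided, 12 residual degrees of freedom) with all 18 libraries and a coefficient for each group. Errors are SD of libraries or SE of log2 changes. Counting error limits CCNE2 most. Alternatives were DESeq2 size factors, no filter beyond 1 count, DESeq2 1.42.0, only the groups compared, a replicate block, leaving out 3 libraries together, and each library in turn. Scripts were tested on simulated data. Named genes were all members, PAFAH1B1, up to 4 genes of each list by smallest adjusted p over the LIS1+/+ steps and list genes that passed in a genotype comparison. Likeness took the 3 highest correlations per member. The members and lists were chosen with earlier results of these data known. Positions come from GENCODE 29 on GRCh38, which may differ from the build the authors used. RefSeq windows were found for 6 of the 10 members. Figures used Matplotlib 3.10.9.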

Additional observations from a re-analysis of the deposited data

Results flagged for a closer look

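The genotype difference of CCND2 was not the same at Day 5 and Day 12. A test of the difference itself, the interaction contrast in edgeR, gave -1.10 ± 0.25 on the log2 scale (adjusted p = 0.0257). LIS1+/- was higher at Day 5 (edgeR, adjusted p = 0.048), a call lost in 8 of 12 alternatives. At Day 12 it was lower and did not pass (edgeR, adjusted p = 0.289). Both differences had libraries without overlap, as did 17.5% and 16.9% of all tested genes, and the interaction rests on the same libraries. Over 18 alternatives the adjusted p of the interaction reached 0.08, and its call was lost in 9, all of which left out 1 library. The summed markers of mesenchyme, of neural crest, and of choroid plexus, endoderm and yolk sac ranged more widely in Day 12 LIS1+/+ than LIS1+/-. The neural progenitor markers LHX2, SIX3 and PAX6 were higher in Day 5 LIS1+/- without overlap. At Day 12 these genes overlapped between the genotypes. The part of all these markers in this difference was not tested.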

How the results depend on the processing

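Of 1618 member values under alternatives, 1578 stayed on their side of the threshold, 18 newly passed, 22 no longer passed and no called value changed sign. The 1578 include 82 values, called in neither setting, whose sign changed. The cause of each change below was not tested. Fits that leave 1 library out also have fewer libraries, and the part of this was not tested either.

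Replicate numbers did not pair the samples. The correlations of same-numbered libraries, as deviations from group means, ran from -0.227 to 0.101, and in none of the 9 pairs of groups were all over 0.1. In 2 of these pairs, all 3 libraries correlated best with their own number. With the replicate block the CCND2 call at Day 5 between genotypes was lost, so 0 members passed, and no other count of members changed.

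Members passing between genotypes at Day 5 numbered 1, but 0 without the 3 libraries that stood apart and in a fit of only the groups compared, and 0 to 1 with 1 library left out. From hESC to Day 5 in LIS1+/+ leaving out 1 library gave 2 to 4 members (2 without hESC LIS1+/+ replicate 3). From Day 5 to Day 12 in LIS1+/- there were 2 with no filter, 2 without the libraries that stood apart, and 1 to 3 with 1 left out, when all genes passing ran from 1317 to 1921. For the genotype effect, Day 5 minus hESC had 1 member with no filter and 1 with DESeq2. Day 12 minus Day 5 had 0 to 1 with 1 library left out, and Day 12 minus hESC had 1 without the libraries that stood apart.

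Counts over all genes depended more on the setting. Between genotypes in hESC 60 genes passed, against 206 with no filter, 131 with DESeq2, 153 with only the groups compared and 21 to 41 with 1 library left out. At Day 5 238 passed, against 412 with no filter and 125 to 186 with 1 left out. At Day 12 171 passed, against 483 with no filter, 294 with DESeq2, 381 without the libraries that stood apart, 41 with only the groups compared and 57 to 332 with 1 left out. For the effect difference Day 5 minus hESC 70 passed, against 281, 140 and 117 with no filter, DESeq2 and only the groups compared, and 31 to 79 with 1 left out. For Day 12 minus Day 5 129 passed, against 363, 205 and 77, and 59 to 170. For Day 12 minus hESC 46 passed, against 172 with no filter, 120 with DESeq2, 158 without the libraries that stood apart and 11 to 138 with 1 left out.

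The genotype difference in hESC of the CCND2 to CCND1 log2 ratio was -0.0084 and turned to 0.209 without the libraries that stood apart. With 1 hESC library left out it ran from -0.205 to 0.209, turning positive without LIS1+/+ replicate 3 or LIS1+/- replicate 1 (0.147). With 1 library left out, the change of the ratio from hESC to Day 5 in LIS1+/-, -0.355, ran from -0.631 to -0.124.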
